A study of Caenorhabditis elegans with 2 samples.

Results

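The proteasome subunit genes of Caenorhabditis elegans were taken as every row of the deposited table whose gene name begins with pas-, pbs-, rpn- or rpt- followed by a digit, which gave 32 of 46135 genes. Their transcript levels were compared between lsm-1(tm3585) mutant animals, from a strain backcrossed to N2, and wild-type N2 animals, both whole and at the L3 larval stage. Both populations started from synchronised L1 larvae that spent 26 hours at 25 °C, and each is represented by 1 library of rRNA-depleted total RNA. The product of lsm-1 belongs to the Lsm complex of the cytoplasm, through which messenger RNAs are decapped before decay. With 1 library per genotype there is no replicate check, no test of the genotype can be made, and every value below describes these 2 libraries.

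The proteasome is the large protease that degrades proteins marked with ubiquitin in the cytoplasm and nucleus of all cells. Its barrel-shaped core is built of rings of alpha subunits, encoded by the pas genes, which gate the entrance, and rings of beta subunits, encoded by the pbs genes, some of which carry the proteolytic sites. A regulatory cap binds the ubiquitin-marked protein, removes the ubiquitin and feeds the unfolded chain into the core. The rpt genes encode the ring of ATPases at the base of the cap, and the rpn genes encode its receptors, scaffolds and lid. In worms the ER-associated isoform of the transcription factor SKN-1, called SKN-1A, is known to raise the transcription of proteasome genes when proteasome activity is low.

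Levels are given in FPKM (fragments scaled by transcript length and library size), from the pair of columns that stands beside the authors' test. A difference is log2(FPKM + 1) in lsm-1(tm3585) minus log2(FPKM + 1) in N2. A gene was called measured where at least 1 of the libraries reached an FPKM of 1 (14838 genes). Their median difference was 0.24, so a centred difference, which subtracts that median, is also given. The table gave an FPKM above 0 for 19718 genes in the lsm-1(tm3585) library and for 21046 in the N2 library, and the steps between low values correspond to about 10.8 M fragments in the lsm-1(tm3585) library and 8.85 M in the N2 library. The lsm-1 transcript itself stood at 5.94 FPKM in lsm-1(tm3585) and 10.2 in N2, with a q-value of 0.457 in the authors' deposited table. The sources do not say which part of the gene the allele alters, so this level checks the genotype only weakly. No vitellogenin gene, a marker of the adult intestine, exceeded 0.761 FPKM in either library. Of 13 measured germ-line genes, all 13 had negative centred differences, against 50% of measured genes by definition. Their summed level was 46.6 FPKM in lsm-1(tm3585) and 70.6 in N2, with glh-1 and pgl-1 the most abundant. By FPKM nos-3 stood at 2.20 in lsm-1(tm3585) and 1.99 in N2, and fbf-2 at 1.34 and 1.35. Only glh-2 of the 13 was past the authors' test. No gene of that list was listed at 0. In RNA of whole larvae, fewer cells of a type and less RNA per cell cannot be told apart, and the part of germ-line content in the values below was not tested.

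Nearly all proteasome subunit transcripts stood slightly higher in the lsm-1(tm3585) library, and by similar amounts. Of the 32 genes, 3 were listed at 0 in both libraries, against 6.33% of protein-coding genes and 50.6% of the whole table. The other 29 were measured and 28 were above 0 in all 4 FPKM columns of the table. Of these 28, 27 had a higher FPKM in lsm-1(tm3585) than in N2, also in the further pair of columns. The share was 67.5% of all measured genes above 0 in all columns, and 4941 of 6491 such genes at 5 FPKM or more. In other large complexes it was 70 of 71 cytosolic ribosomal protein genes, 16 of 16 V-ATPase genes and 5 of 5 CCT chaperonin genes. The exception among the subunit genes was rpn-6.2. The differences of the other 27 ran from 0.12 to 0.76 with a median of 0.40, and their FPKM ratios ran from 1.09 to 1.78. By the size rule, a difference of at least 1, none of the 29 measured subunit genes was higher, against 13.6% of measured genes, and pas-7 and rpn-6.2 were lower, against 12.2%. In the authors' deposited table none of the 23 subunit genes with a usable test was past the test in either direction, against 2.35% of tested genes higher and 1.41% lower. For 2 subunit genes, rpn-1 and rpn-6.2, the authors' deposited table gave a p-value under 0.05, against 14.2% of tested genes. None of the 32 genes lies on the X chromosome.

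**Figure D1:**
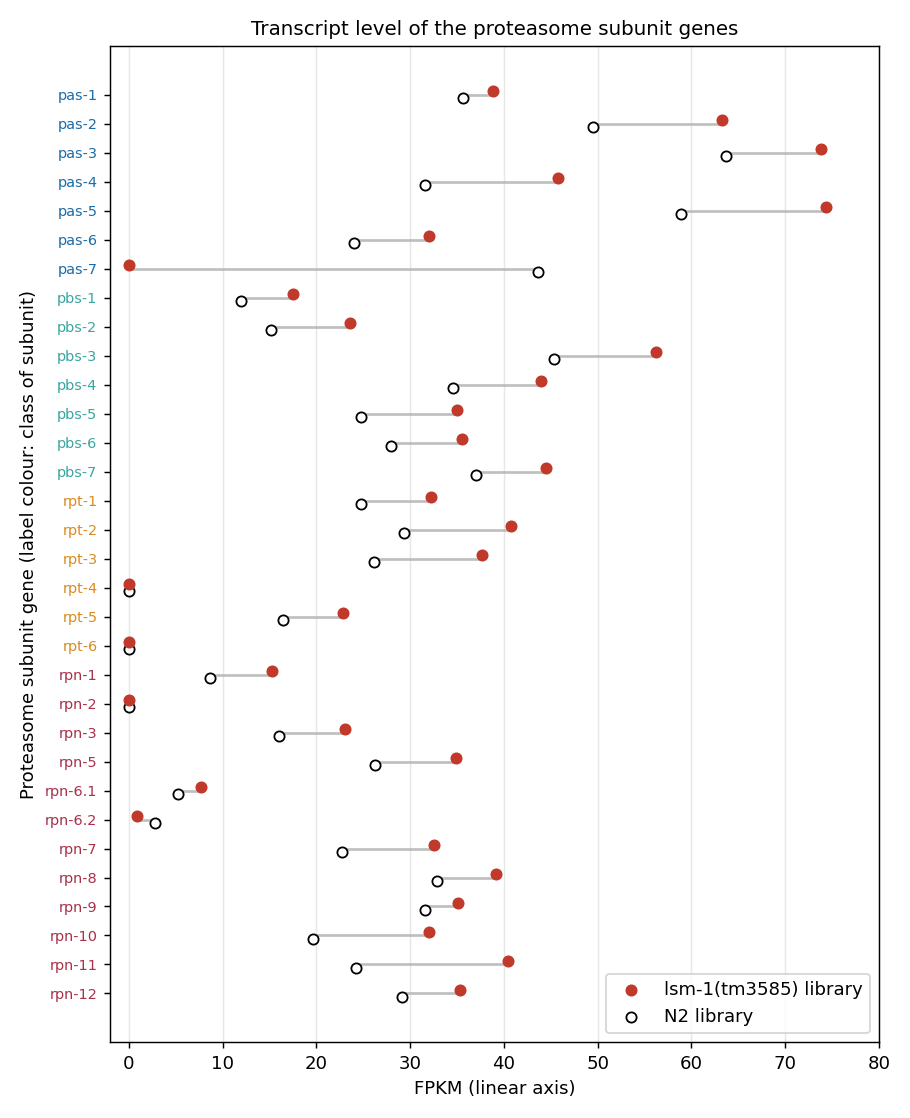
Transcript level of each of the 32 proteasome subunit genes, in FPKM on a linear axis, with filled red points for the lsm-1(tm3585) library and open points for the N2 library, and a grey line joining the pair. The red point lies to the right of the open one for 27 genes, pas-7 is listed at 0 in lsm-1(tm3585) against 43.6 FPKM in N2, and rpt-4, rpt-6 and rpn-2 are listed at 0 in both.

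Many other genes stood higher as well. Of the 29 measured subunit genes, 24 lay above the median of measured genes, against 50% of measured genes by definition and 50.3% of those above 0 in all columns, and the median centred difference was 0.16. Among the 8083 genes that reached 5 FPKM in at least 1 library the median difference was 0.34. Relative to that median the 28 subunit genes at that level, pas-7 included and rpn-6.2 left out, had a median of 0.05. Of these 28, 17 lay above it, against 50% of genes at that level by definition. A gene can enter that set through its level in lsm-1(tm3585) alone, and the pseudocount understates the change of the low genes left out. Over 10491 protein-coding genes above 0 in all columns, log2 FPKM in N2 and the difference had a Pearson r of -0.07 and a Spearman rho of -0.02. Whether the higher median of that set reflects level was not tested. A centred difference of at least 0.5 was found for 1 subunit gene, rpn-1, against 19.9% of measured genes, and one of at most -0.5 for pas-7 and rpn-6.2, against 25.2%. The spread among the subunit genes was narrow beside that of genes at 5 FPKM or more as a whole. The interquartile range of the difference was 0.21 for the 28 subunit genes above 0 in all columns. It was 0.59 for the 6491 genes above 0 in all columns at 5 FPKM or more. The subunit genes had the higher median level, 35.2 FPKM in lsm-1(tm3585) and 26.2 in N2. For the 6491 genes it was 11.7 in lsm-1(tm3585) and 9.32 in N2, and the part of level in the spread was not tested. Other large complexes also had narrower ranges than that. Among genes above 0 in all columns they were 0.19 for 5 CCT chaperonin genes, 0.29 for 16 V-ATPase genes and 0.33 for 71 cytosolic ribosomal protein genes.

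The alpha subunit genes were the most abundant class. The gene pas-5 stood at 74.4 FPKM in lsm-1(tm3585) and 58.9 in N2, and pas-3 at 73.8 in lsm-1(tm3585) and 63.7 in N2. The gene pas-2 stood at 63.3 FPKM in lsm-1(tm3585) and 49.5 in N2. These 3 genes held the top of the order of levels in both libraries. The gene pas-4 stood at 45.8 FPKM in lsm-1(tm3585) and 31.6 in N2, the largest ratio of the class at 1.45, with a 95% counting interval of 1.21 to 1.74. The gene pas-6 stood at 32.01 FPKM in lsm-1(tm3585) and 24.04 in N2. The gene pas-1 stood at 38.8 FPKM in lsm-1(tm3585) and 35.6 in N2. That ratio of 1.09 was the smallest of the 27 genes, and its interval of 0.919 to 1.30 includes 1. The class had a centred median of 0.10 and 4 of its 7 genes lay above the median of measured genes. Relative to the genes at 5 FPKM or more the centred median of the class was -0.01.

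The seventh alpha subunit gene, pas-7, was listed at 0 FPKM in lsm-1(tm3585) and at 43.6 in N2, and in the further pair at 0 in lsm-1(tm3585) and 36.6 in N2. In the authors' deposited table its test is marked as usable, yet its log2 fold change is 0 and its p-value 1. The same entry stands for 275 of 2337 measured genes with a usable test that are listed at 0 in 1 library (11.8%). By the annotation, the exons of pas-7 share 4 bases with lact-2 on the opposite strand. The partner lact-2 was likewise listed at 0 in lsm-1(tm3585), against 12.97 FPKM in N2. A listed 0 may stand for an estimate that failed, so no fold is given for pas-7. It counts among the lower genes by the size rule only because a measured gene listed at 0 in lsm-1(tm3585) always does.

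The beta subunit genes all stood higher in lsm-1(tm3585), with 7 of 7 above the median of measured genes and a centred median of 0.10. Among the subunits that carry proteolytic sites, pbs-5, the chymotrypsin-like subunit, stood at 35.0 FPKM in lsm-1(tm3585) and 24.7 in N2. The trypsin-like subunit gene pbs-2 stood at 23.5 FPKM in lsm-1(tm3585) and 15.1 in N2. The caspase-like subunit gene pbs-1 stood at 17.5 FPKM in lsm-1(tm3585) and 11.9 in N2, the lowest level of any core subunit above 0. These 3 had the largest ratios among the beta subunits, 1.42 for pbs-5, 1.56 for pbs-2 and 1.46 for pbs-1, and their counting intervals of 1.18 to 1.71, 1.22 to 1.98 and 1.07 to 2.002 overlap those of the other 4. The structural subunit gene pbs-3 stood at 56.2 FPKM in lsm-1(tm3585) and 45.3 in N2, and pbs-7 at 44.5 in lsm-1(tm3585) and 37.0 in N2. The gene pbs-4 stood at 43.9 FPKM in lsm-1(tm3585) and 34.6 in N2, and pbs-6 at 35.6 in lsm-1(tm3585) and 27.9 in N2. Their ratios lay between 1.202 for pbs-7 and 1.27 for pbs-6. Relative to the genes at 5 FPKM or more the median of the class was -0.0044. Without the 3 genes whose exons overlap another gene, pbs-3, pbs-4 and pbs-7, the centred median was 0.26.

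Among the ATPase genes at the base of the cap, the 4 genes with a level differed by nearly the same amount. The gene rpt-2 stood at 40.8 FPKM in lsm-1(tm3585) and 29.3 in N2, a ratio of 1.39. The gene rpt-3, whose promoter is used in reporters of proteasome gene transcription in worms, stood at 37.7 FPKM in lsm-1(tm3585) and 26.2 in N2, a ratio of 1.44 with a counting interval of 1.24 to 1.69. The gene rpt-1 stood at 32.2 FPKM in lsm-1(tm3585) and 24.7 in N2, and rpt-5 at 22.8 in lsm-1(tm3585) and 16.4 in N2. The centred median of the 4 was 0.22. The other ATPase genes, rpt-4 and rpt-6, were listed at 0 in both libraries and in both pairs of columns. The exons of rpt-4 share 103 bases with those of rpoa-49 on the opposite strand, and those of rpt-6 share 26 with those of glrx-5, and both partners were also listed at 0 in both libraries. Their next annotated neighbours had levels. The histone gene his-72, next to rpt-6, stood at 92.4 FPKM in lsm-1(tm3585) and 66.1 in N2.

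Among the 28 genes above 0 in all columns, the 3 highest differences and the lowest belonged to non-ATPase subunits of the cap. The gene rpn-1, which encodes the base scaffold that docks ubiquitin shuttle proteins, stood at 15.3 FPKM in lsm-1(tm3585) and 8.61 in N2, a ratio of 1.78 with a counting interval of 1.52 to 2.09. The gene rpn-11, which encodes the metalloprotease that cuts ubiquitin chains off the substrate, stood at 40.5 FPKM in lsm-1(tm3585) and 24.3 in N2, a ratio of 1.67 with an interval of 1.42 to 1.97. The gene rpn-10, which encodes a ubiquitin receptor, stood at 31.98 FPKM in lsm-1(tm3585) and 19.6 in N2, a ratio of 1.63 with an interval of 1.37 to 1.95. The intervals of these 3 genes were the only ones of the 28 to lie wholly above 1.29, the median ratio of genes at 5 FPKM or more. In the authors' deposited table rpn-1 had a p-value of 0.0178 and a q-value of 0.225, rpn-10 a q-value of 0.417 and rpn-11 a q-value of 0.457. The exons of rpn-10 share 32 bases with B0205.12 on the opposite strand, which stood at 59.0 FPKM in lsm-1(tm3585) and 30.9 in N2. Those of rpn-11 share 16 bases with pqn-48, at 6.45 FPKM in lsm-1(tm3585) and 3.09 in N2. Because strand is not stated for the counting, reads of such overlaps cannot be told apart. Exon overlaps were annotated for 11 of the 32 genes, and among the 20 measured genes without one the centred median was again 0.16. No exon overlap was annotated for rpn-1.

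Most other lid subunits form the horseshoe-shaped scaffold of the lid. The interquartile range of the difference was 0.23 for the 8 lid genes, rpn-11 included. Among genes above 0 in all columns it was 0.15 for pas, 0.18 for pbs and 0.04 for rpt. The gene rpn-7 stood at 32.5 FPKM in lsm-1(tm3585) and 22.7 in N2, rpn-3 at 23.01 in lsm-1(tm3585) and 15.98 in N2, and rpn-5 at 34.9 in lsm-1(tm3585) and 26.3 in N2. Their ratios were 1.43, 1.44 and 1.33. The gene rpn-12 stood at 35.3 FPKM in lsm-1(tm3585) and 29.1 in N2, and its interval of 0.993 to 1.48 includes 1. The gene rpn-9 stood at 35.1 FPKM in lsm-1(tm3585) and 31.5 in N2, a ratio of 1.11 with an interval of 0.960 to 1.29. The gene rpn-8, which encodes the partner of the RPN-11 protein in the lid, stood at 39.2 FPKM in lsm-1(tm3585) and 32.9 in N2, a ratio of 1.19. Its interval of 1.03 to 1.38 and that of rpn-11 do not overlap. The 8 lid genes had a centred median of 0.20, and the 6 base genes with a level, ATPases included, one of 0.25. The base genes are rpt-1, rpt-2, rpt-3, rpt-5, rpn-1 and rpn-10, and rpn-6.2 is left out of the lid.

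The paralogues rpn-6.1 and rpn-6.2 had differences of opposite sign, 0.48 for rpn-6.1 and -1.02 for rpn-6.2. The gene rpn-6.1, which encodes the lid subunit that clamps cap and core together and whose raised level has been studied in long-lived worms, stood at 7.70 FPKM in lsm-1(tm3585) and 5.25 in N2. It was the least abundant of the 27 genes that stood higher, and its ratio of 1.47 has an interval of 1.08 to 2.02. The gene rpn-6.2 stood at 0.886 FPKM in lsm-1(tm3585) and 2.83 in N2, and the further pair gave 0.776 in lsm-1(tm3585) and 2.48 in N2. About 13 fragments lay behind the value in lsm-1(tm3585) and 34 behind that in N2, and the ratio of 0.313 has a counting interval of 0.152 to 0.611. In the authors' deposited table rpn-6.2 had a p-value of 0.00532 and a q-value of 0.103, the lowest q-value of the family, and rpn-6.1 was marked as a failed test. Whether the copies share reads was not examined.

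The remaining base scaffold gene, rpn-2, was listed at 0 in both libraries and both pairs of columns, and its test was marked as failed. The 2 neighbouring genes of rpn-2 on the chromosome, C23G10.7 and C23G10.8, were also listed at 0 in both libraries with failed tests, although no overlap with rpn-2 is annotated. Of the 32 genes, 7 were marked as failed tests by the authors. The same mark stood for 4 of 19 V-ATPase genes, 3 of 8 CCT chaperonin genes and 10 of 76 cytosolic ribosomal protein genes. Failed tests were thus not particular to the proteasome. Among measured genes the mark stood for 544 of 8083 genes at 5 FPKM or more and 4.36% of all. Among the measured subunit genes it stood for 6 of 29. These 6, the genes pas-1, pbs-4, rpt-2, rpt-5, rpn-5 and rpn-6.1, had levels above 0 in all columns.

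The intervals show how much of the variation among the subunits the counting error can cover. Of the 28, 21 held the median ratio of the subunit genes themselves, 1.33. The intervals of rpn-1, rpn-10 and rpn-11 lay above that ratio, and those of pas-1, pas-3, rpn-9 and rpn-6.2 below it. The interval of 24 of the 28 genes lay above 1, against 34% of measured genes with an interval and 49.4% of those at 5 FPKM or more, and that of 1 gene, rpn-6.2, lay below 1, against 8.89%. Set against the median ratio of measured genes above 0 in all columns, 1.23, the interval of 5 genes, or 17.9%, lay above it. That share is near the 17.1% of all measured genes with an interval and so is not a result about the subunit genes. The 5 were rpn-1, rpn-7, rpn-10, rpn-11 and rpt-3. Of the 28 intervals, 24 (85.7%) held the median ratio of genes at 5 FPKM or more, against 58.4% of the genes at that level, while 3 lay above it, against 20.6%, and 1 lay below it, against 21%. These intervals cover counting error only, and between 117 and 594 fragments lay behind each of the 27 higher values in lsm-1(tm3585), and between 66 and 391 in N2.

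**Figure D2:**
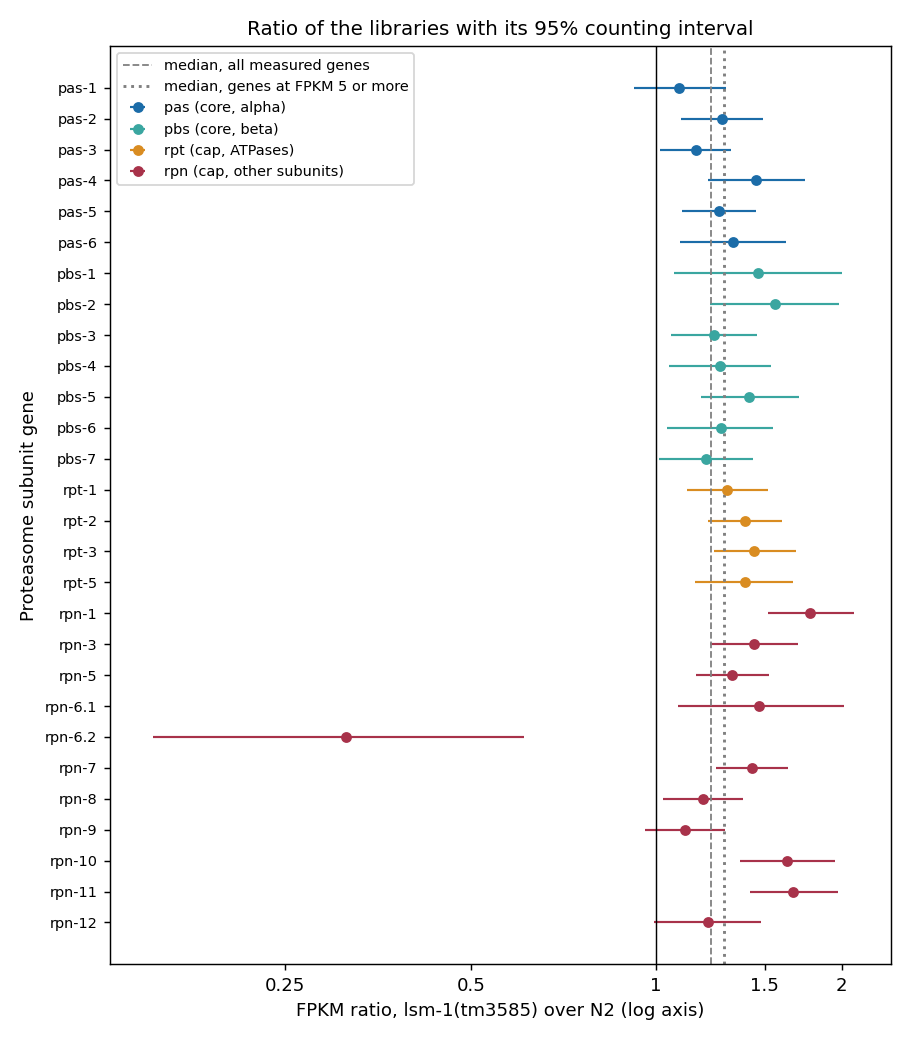
FPKM ratio of lsm-1(tm3585) over N2 on a log axis for the 28 subunit genes above 0 in all columns, coloured by class, with bars for the 95% counting interval. Dashed and dotted grey lines mark the median ratio of all measured genes (1.23) and of genes at 5 FPKM or more (1.29); the bars of rpn-1, rpn-10 and rpn-11 lie to the right of both lines and that of rpn-6.2 to the left.

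The order of the levels within the proteasome was similar in the libraries. Across the 28 genes above 0 in all columns, log2 FPKM in lsm-1(tm3585) and in N2 had a Pearson r of 0.94 and a Spearman rho of 0.94, as a description over genes that share both libraries. Across 10491 protein-coding genes above 0 in all columns the values were 0.89 and 0.90. Summed over the genes above 0 in all columns, the core subunits reached 584 FPKM in lsm-1(tm3585) and 460 in N2, a ratio of 1.27, and the cap subunits 430 in lsm-1(tm3585) and 316 in N2, a ratio of 1.36. The median level of a core subunit was 43.9 FPKM in lsm-1(tm3585) and 34.6 in N2, and that of a cap subunit 32.5 in lsm-1(tm3585) and 24.3 in N2.

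The centred median was 0.23 for 15 measured cap genes and 0.10 for 14 measured core genes. Without genes whose exons overlap another gene it was 0.19 for 11 cap genes, 10 of them measured, and 0.14 for 10 core genes, and by class it was 0.10 for pas, 0.26 for pbs, 0.22 for rpt and 0.16 for rpn, so that a core class stood highest. The classes also differed in transcript length, with a median of 1493 bases for the cap and 878 for the core. The 12 genes with transcripts under 1000 bases had a median difference of 0.33, the 9 between 1000 and 1500 bases one of 0.49, and the 7 of at least 1500 bases, rpn-6.2 included, one of 0.48. Over protein-coding genes above 0 in all columns the same bins gave 0.21, 0.24 and 0.29. Pearson's r between log2 length and the difference was 0.11 over the 28 subunit genes above 0 in all columns and 0.09 over those protein-coding genes, and Spearman's rho was 0.31 and 0.08. Cap and core also differed in level, as given above. Between log2 FPKM in N2 and the difference, Pearson's r was 0.28 and Spearman's rho -0.57 over the 28 subunit genes. Over those protein-coding genes the values were -0.07 and -0.02. The N2 level itself enters the difference. The coefficients over the subunit genes, for length and for level, include rpn-6.2. That gene has the lowest N2 level of the 28, 2.83 FPKM, and the lowest difference, -1.02. Pearson's r is sensitive to 1 such gene, and no coefficient was computed without it. The parts of length and level in the contrast of cap and core were not tested.

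**Figure D3:**
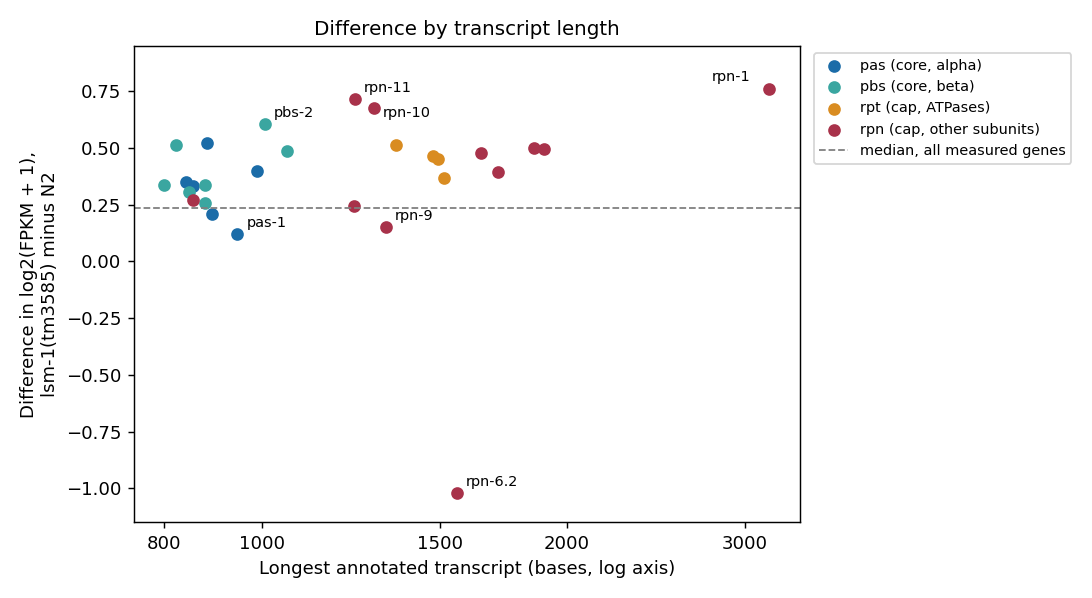
Difference in log2(FPKM + 1), lsm-1(tm3585) minus N2, against the length of the longest annotated transcript in bases on a log axis, for the 28 subunit genes above 0 in all columns, coloured by class. The core genes and rpn-12 lie at the short end, rpn-1, rpn-10 and rpn-11 have the highest differences, and rpn-6.2 lies at -1.02; the dashed line is the median of all measured genes, 0.24.

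Proteins that work with the proteasome but lie outside the naming rule were examined next, from a list of 12 entries of which 9 were found and measured. Of these 9, 6 lay above the median of measured genes, and the centred median was 0.14. The size rule took none, against 13.6% of measured genes higher and 12.2% lower. The authors' test took none of the 7 with a usable test, against 2.35% of tested genes higher and 1.41% lower. With so few genes these counts are not a result about the list. The gene psme-3, which encodes the activator that can replace the cap, stood at 26.5 FPKM in lsm-1(tm3585) and 15.2 in N2, a ratio of 1.74 with a counting interval of 1.36 to 2.25. The gene ubh-4, which encodes a deubiquitinase bound to the cap, stood at 16.8 FPKM in lsm-1(tm3585) and 10.6 in N2. The small lid subunit gene dss-1 stood at 45.2 FPKM in lsm-1(tm3585) and 31.7 in N2, and the ubiquitin receptor gene rpn-13 (C56G2.7, which has no rpn- name in the deposited table) at 29.4 in lsm-1(tm3585) and 21.9 in N2. Their ratios of 1.43 and 1.34 lie within the range of the cap subunits. The remaining 5 genes had ratios between 1.02 and 1.37. The deubiquitinase gene usp-14 stood at 25.9 FPKM in lsm-1(tm3585) and 21.7 in N2, aip-1 at 5.38 in lsm-1(tm3585) and 3.92 in N2, and the assembly chaperone gene psmd-9 at 8.51 in lsm-1(tm3585) and 7.74 in N2. In the further pair psmd-9 was listed at 0 in lsm-1(tm3585) and at 6.81 in N2. The genes ecps-1 and ecps-2, which encode ECM29-type proteasome adaptors, stood at 8.66 and 5.77 FPKM in lsm-1(tm3585) and at 8.17 and 5.67 in N2.

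The transcription factor gene skn-1 stood at 8.97 FPKM in lsm-1(tm3585) and 3.84 in N2, a ratio of 2.33 with a counting interval of 1.79 to 3.02, and it was past the test in the authors' deposited table, with a q-value of 0.0107. In the further pair skn-1 stood at 7.98 FPKM in lsm-1(tm3585) and was listed at 0 in N2. The table holds 1 value per gene, so SKN-1A and the other isoforms cannot be told apart. The gene png-1, which encodes the glycanase that edits SKN-1A, stood at 5.48 FPKM in lsm-1(tm3585) and was listed at 0 in N2, past the authors' test. The gene ddi-1, which encodes the protease that cuts SKN-1A, stood at 13.5 FPKM in lsm-1(tm3585) and 10.7 in N2, a centred difference of 0.08. The ER degradation genes sel-1 and sel-9 stood at 10.2 and 46.6 FPKM in lsm-1(tm3585) and at 8.66 and 44.2 in N2, while sel-11 was listed at 0 in both libraries. Among genes that act on SKN-1 in other ways, wdr-23, an adaptor for its degradation, stood at 19.3 FPKM in lsm-1(tm3585) and was listed at 0 in N2, past the authors' test, but in the further pair both libraries list it at 0. The genes brap-2 and xbp-1 stood at 9.94 and 39.5 FPKM in lsm-1(tm3585) and at 7.87 and 33.5 in N2. Of the 8 measured genes of this list, 5 lay above the median of measured genes, 3 passed the size rule as higher, against 13.6% of measured genes, and the same 3, skn-1, png-1 and wdr-23, were past the authors' test, against 2.35% of tested genes. For png-1 and wdr-23 this rests on an N2 value listed at 0, and the 5 genes of the list above 0 in all columns had a centred median of -0.0041.

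The list of ubiquitin supply and activation, which also holds NEDD8 and SUMO genes, as a whole lay near the median of measured genes. Of its 11 genes, 6 lay above that median, for a centred median of 0.04. None of its 8 genes with a usable test was past the authors' test, against 2.35% of tested genes higher and 1.41% lower. The centred difference was 0.26 for ubq-2, 0.23 for ubl-1 and 0.19 for uba-1. For the NEDD8 and SUMO genes ned-8, ula-1, rfl-1, smo-1, aos-1 and uba-2 it ran from -0.07 to 0.09. The ubiquitin fusion gene ubq-2 was the most abundant at 586 FPKM in lsm-1(tm3585) and 415 in N2, with a ratio of 1.41, and ubl-5 stood at 29.6 in lsm-1(tm3585) and 20.6 in N2. The ubiquitin-activating enzyme gene uba-1 stood at 34.6 FPKM in lsm-1(tm3585) and 25.5 in N2. The SUMO gene smo-1 stood at 56.0 FPKM in lsm-1(tm3585) and 49.9 in N2. The polyubiquitin gene ubq-1 was listed at 0 in lsm-1(tm3585) and at 109 FPKM in N2, with a failed test. The ubiquitin-conjugating enzymes (22 measured, 12 above the median) had a centred median of 0.03, and ubc-16, at 10.5 FPKM in lsm-1(tm3585) and listed at 0 in N2, was the 1 gene of that list past the authors' test, against 2.35% of tested genes higher. In that list ubc-12, the NEDD8-conjugating enzyme gene, stood at 21.9 FPKM in lsm-1(tm3585) and 11.6 in N2, ubc-22 at 0.543 in lsm-1(tm3585) and 1.59 in N2, and ubc-18 was listed at 0 in lsm-1(tm3585) and at 4.18 in N2.

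The lists that stand between ubiquitin and the proteasome held no gene past the authors' test, against 2.35% of tested genes higher and 1.41% lower. They hold 11, 14, 17 and 3 genes with a usable test, in the order given below. At those shares and with so few tests, this is not a result about these lists. For the cullin ligase core (13 measured, 8 above the median) the centred median was 0.01. It ran from the adaptor gene skr-2, at 8.22 FPKM in lsm-1(tm3585) and 15.04 in N2, and cul-2, at 15.9 in lsm-1(tm3585) and 15.1 in N2, to the RING gene rbx-1, at 37.3 in lsm-1(tm3585) and 21.5 in N2, and the elongin C gene elc-1, at 28.2 in lsm-1(tm3585) and 14.3 in N2. For the CDC-48 segregase and shuttle factors (18 measured, 11 above the median) it was 0.08. There ubxn-6 stood at 13.4 FPKM in lsm-1(tm3585) and 7.57 in N2, and ubxn-2 at 5.58 in lsm-1(tm3585) while listed at 0 in N2. At the low end atx-3, the ataxin-3 deubiquitinase gene, stood at 6.96 FPKM in lsm-1(tm3585) and 8.09 in N2, and vms-1 at 12.3 in lsm-1(tm3585) and 12.7 in N2. The shuttle gene rad-23, which hands ubiquitin-marked proteins to the proteasome, stood at 29.3 FPKM in lsm-1(tm3585) and 18.2 in N2. The deubiquitinases (17 measured, 8 above the median) had a centred median of -0.04, from duo-1, at 1.22 FPKM in lsm-1(tm3585) and 1.71 in N2, and cyld-1, at 1.68 in lsm-1(tm3585) and 1.98 in N2, to ubh-4, given above, and otub-2, at 11.3 in lsm-1(tm3585) and 6.85 in N2. The COP9 signalosome, whose subunits are related to those of the proteasome lid, had 5 measured genes, with csn-3 at 8.83 FPKM in lsm-1(tm3585) and 8.27 in N2, csn-1 at 8.35 in lsm-1(tm3585) and 7.59 in N2, csn-4 at 6.96 in lsm-1(tm3585) and 4.81 in N2, and cif-1 at 29.0 in lsm-1(tm3585) and listed at 0 in N2. Its centred median was 0.08, with 3 genes above the median of measured genes.

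**Figure D4:**
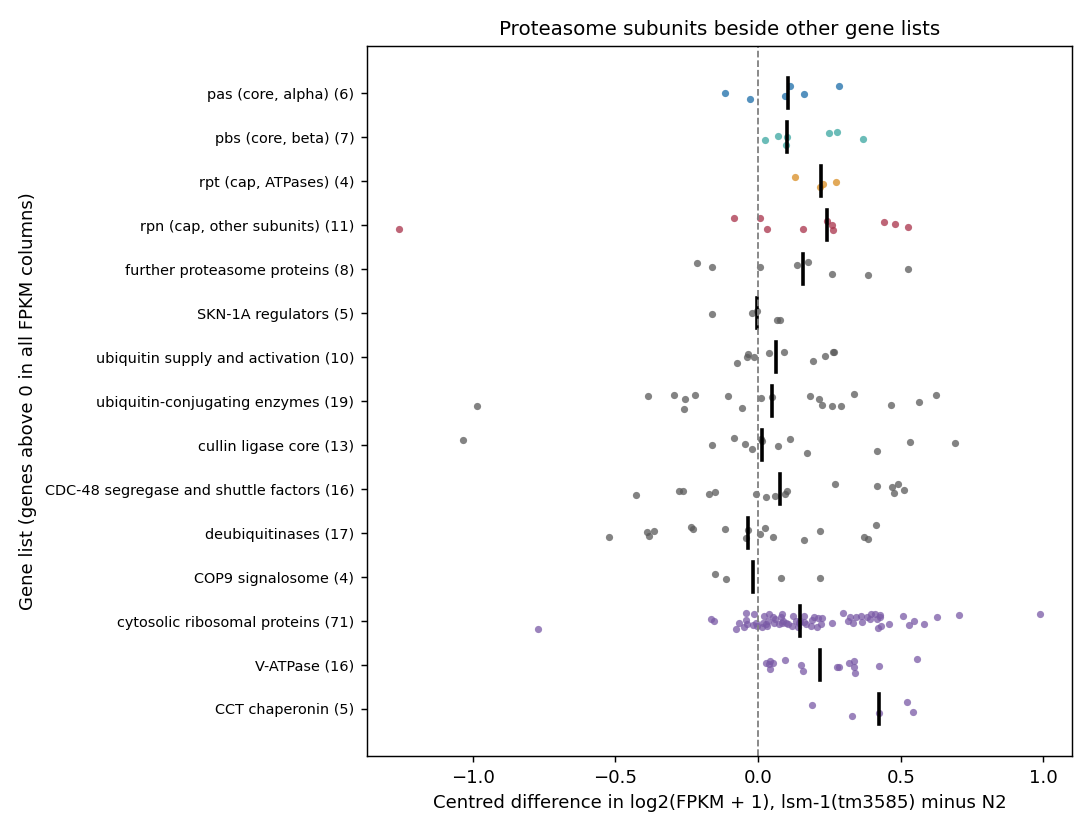
Centred difference in log2(FPKM + 1), lsm-1(tm3585) minus N2, for genes above 0 in all FPKM columns, with 1 point per gene, a black bar for the median of each list and the number of genes in brackets. Proteasome classes are at the top, related lists in grey and other large complexes in purple; the medians of the proteasome classes lie between 0.10 and 0.24, and that of the CCT chaperonin at 0.42.

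Other large complexes that every cell uses gave similar or larger values. Among genes above 0 in all columns, the 28 proteasome subunit genes had a centred median of 0.16. It was 0.15 for 71 of 76 cytosolic ribosomal protein genes and 0.22 for 16 of 19 V-ATPase genes. For 5 of the 8 genes of the CCT chaperonin, which folds newly made proteins, it was 0.42. The other 3, cct-4, cct-6 and cct-7, were left out because they were listed at 0 in N2. These differences between complexes were not tested, since 1 library per genotype allows no test.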

How the data were processed

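RNA of L3 larvae was measured in 1 lsm-1(tm3585) and 1 N2 library. Per the submitters' processing notes TopHat, Cufflinks and Cuffdiff were used, with no versions. Genome build, annotation and strand setting were not given in the sources, and coordinates are left out. The authors deposited 2 pairs of FPKM columns. Per gene, deposited columns hold a log2 fold change (lsm-1(tm3585) over N2), the score of a test, its p-value and the q-value. The test sets 1 library against 1 library and so compares libraries, not genotypes. In the first pair the wild-type column is headed as the control and was taken to be N2, the only other sample. The first pair was used here and the further pair was an alternative. The pseudocount was 1, which understates the change of low genes.

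Members and lists were chosen with earlier results of these data known. Every subunit gene is named. Of each related list, the 2 highest and 2 lowest differences and genes past the authors' test are named, with both short lists of proteasome proteins and SKN-1A regulators in full. The genes uba-1 and rad-23 were added after their values were seen. So were ubl-1 and, beside smo-1, the NEDD8 and SUMO genes of the ubiquitin supply list. Of 118 list entries 3 were not found. Symbols missing from the table were matched through RefSeq, and lengths and overlaps came from Ensembl release 115 (WBcel235), which may differ from the authors' annotation.

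The FPKM of 1 fragment was estimated from the low values of 4044 genes: at a step ratio of 1.22 between the libraries, 40.3% of gene ratios came within 0.5% of small whole-number ratios, against a median of 4.06% over other step ratios. Fragments used the longest transcript less 200 bases and are approximate. Counting intervals (95%, Clopper-Pearson on the fragments of both libraries) cover counting error only. The method was run on simulated whole-number counts of genes with 1 transcript, made with the same length rule. That run cannot show whether the rule or the intervals hold in these data. Python 3.11.15, numpy 2.4.6, pandas 2.3.3 and scipy 1.17.1 were used.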

Additional observations from a re-analysis of the deposited data

How the results depend on the processing

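Each result was recomputed with a pseudocount of 0.1, an FPKM minimum of 5 or none, the further FPKM pair, genes above 0 in every column, libraries scaled to the same sum and, chosen after seeing the data, without subunit genes whose exons overlap another gene. Of the recomputed summary values 92 kept within and 33 left the limits used, a factor of 1.5 for counts and 0.1 for medians. The median of all genes shifted by 0.11 with the minimum of 5, by -0.24 with no filter and by -0.11 with equal sums. With the minimum of 5, centred medians were 0.055 for all subunit genes, -0.010 for pas, -0.0044 for pbs, 0.12 for rpt, 0.032 for further proteasome proteins, -0.034 for SKN-1A regulators, -0.067 for ubiquitin supply, -0.092 for the cullin core and -0.024 for COP9. There 1 subunit gene was lower by the size rule, and 0 had a centred difference of at least 0.5 and 1 of at most -0.5. With no filter, the median of all genes is 0 by construction, and centred medians were 0.36 for all subunit genes, 0.33 for pas, 0.34 for pbs, 0.41 for rpt, 0.44 for rpn, 0.37 for further proteasome proteins, 0.30 for SKN-1A regulators, 0.27 for ubiquitin supply, 0.18 for conjugating enzymes, 0.25 for the cullin core, 0.31 for CDC-48 factors and 0.12 for deubiquitinases, and 7 subunit genes had a centred difference of at least 0.5. With the further pair 1 subunit gene was lower by the size rule. Among genes above 0 in every column, which leaves out pas-7, 1 was lower by the size rule, 1 had a centred difference of at most -0.5, and COP9 had a centred median of -0.019. With equal sums the median difference of the subunit genes was 0.27, uncentred. Without overlapping genes 1 was lower by the size rule, 1 had a centred difference of at most -0.5, and pbs had a centred median of 0.26. Of the recomputed values of single subunit genes 170 kept within them and 2 did not, both of pas-7, which is listed at 0 in lsm-1(tm3585). For the other changes the cause was not tested.

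No paired analysis was possible because each genotype has 1 library and no result comes from a test, and no library can be left out. Depth limits the low genes most: 13 fragments in lsm-1(tm3585) and 34 in N2 lie behind rpn-6.2.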

Other observations

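The subunit genes pas-7, rpt-4 and rpt-6 are listed at 0 beside overlapping genes listed at 0, while rpn-2 has no annotated overlap. Overlapping pairs were counted over the table. Counted were protein-coding genes that reached 5 FPKM in the other library and overlap a partner above 0 there. The genes rpt-4 and rpt-6, listed at 0 in both libraries, cannot enter this count, while pas-7 meets its terms. Genes were counted and not pairs, so a pair with both genes listed at 0 may enter once for each gene, which raises the percentage. In the lsm-1(tm3585) library, 27 of 38 such genes listed at 0 (71.1%) had a partner also listed at 0, against 41 of 1345 genes above 0 (3.05%). In the N2 library the counts were 60 of 84 (71.4%) and 43 of 1602 (2.68%). The overlaps come from an annotation that may differ from that of the authors, and this count was chosen after the values of pas-7 and its partner were seen.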
